A study of Schizosaccharomyces pombe with 6 samples.

Results

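The ChIP-seq peaks of CFP-Cnp1 in WT cells were set against the ChIP-seq peaks of a strain without the tag. All peaks of both lists were taken, 59 from the WT CFP-*cnp1* strain and 961 from the untagged strain, 1020 of the 2635 peaks in the 3 lists of the series. The WT strain carries CFP-*cnp1*, the histone gene fused to a fluorescent protein, with a Kan marker in an *ade6-704 leu1-32 ura4-D18* background. The untagged strain has no CFP-Cnp1, so the same anti-GFP antibody shows there what comes down without its target. Both cultures grew exponentially in the rich medium YES, 100 mL of each was mixed with 10 mL of budding yeast carrying Scc1-Pk as calibrator, and cells were crosslinked with 1% formaldehyde for 15 min. Each strain gave 1 ChIP library and 1 input. There are no replicates, no difference between the strains can be set against an experimental error, and all values below are descriptions of these libraries. The lists hold no read numbers, so the depth behind a peak is unknown and no counting interval can be given for its score. For whole libraries the paper reports fewer reads uniquely mapped to *S. pombe* in the WT ChIP than in the untagged ChIP.

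Cnp1 is the fission yeast CENP-A, the histone H3 variant that marks the site where the kinetochore is built. A centromere of fission yeast has a central core (*cnt*), an innermost repeat on each side of it (*imr*), which are inverted copies of each other, and outer repeats (*otr*) of *dg* and *dh* units. CENP-A nucleosomes are known from *cnt* and the inner part of *imr*, while the *otr* is packed in heterochromatin. Clusters of tRNA genes lie in *imr*, and tRNA genes are known in this yeast as places where heterochromatin stops. The parts were located in the ASM294v3 sequence, on which *cnt* measured 4118 bp on chromosome I, 6803 bp on II and 4853 bp on III. Distances are given from the midpoint of *cnt*, which is base 3771136 on chromosome I, 1624208 on II and 1099497 on III.

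The highest WT summits carry most of what follows, and the sequence around the highest of each centromere is shown first. Each line gives 101 bases of RefSeq sequence, plus strand, build ASM294v3, with the summit base in capitals. All of them lie in *imr*.
chrI:3776214-3776314: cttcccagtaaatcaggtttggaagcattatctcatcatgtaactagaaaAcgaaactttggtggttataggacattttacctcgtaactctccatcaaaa
chrII:1619869-1619969: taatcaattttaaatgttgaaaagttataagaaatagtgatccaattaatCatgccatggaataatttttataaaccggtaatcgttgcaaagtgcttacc
chrIII:1105102-1105202: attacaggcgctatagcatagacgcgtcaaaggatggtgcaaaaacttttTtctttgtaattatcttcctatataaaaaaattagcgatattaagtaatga
Each of these windows has exactly 1 other copy in the genome, 100.0% identical on the minus strand in the opposite *imr*. The copies lie at 3765959 to 3766059 on chromosome I, 1628446 to 1628546 on II and 1093792 to 1093892 on III. In all 3 cases the same WT peak covers summit and copy, and neither is under an untagged peak. The exact match between the arms runs on for 4283 bases around the summit of chromosome I, 1670 bases on II and 6443 bases on III, where the summit base stands in the middle with 3221 identical bases on each side. A read of 150 bases from inside such a stretch has the same sequence on both arms, so which *imr* holds the summit cannot be told apart.

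WT CFP-Cnp1 covered the middle of all 3 centromeres, and the untagged list had no peak there. Within 5 kb of the midpoints 29812 bases were under WT peaks only, 185 under both lists and 0 under untagged peaks only. From 5 to 10 kb the WT-only sequence shrank to 5365 bases and 23557 bases were under both lists. From 10 to 20 kb 2170 bases were WT-only and 47972 under both, with 4997 under untagged peaks only. From 20 to 30 kb 60 bases were WT-only, and from 30 to 50 kb 172 were. Beyond 50 kb no base of 12271823 was WT-only. For *cnt* alone, WT peaks covered 100.0% of it on each chromosome, and untagged peaks covered 0 of its 15774 bases. This goes with the label of the WT list, but *cnt* lies within the same 5 kb, so it is no separate check.

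**Figure D1:**
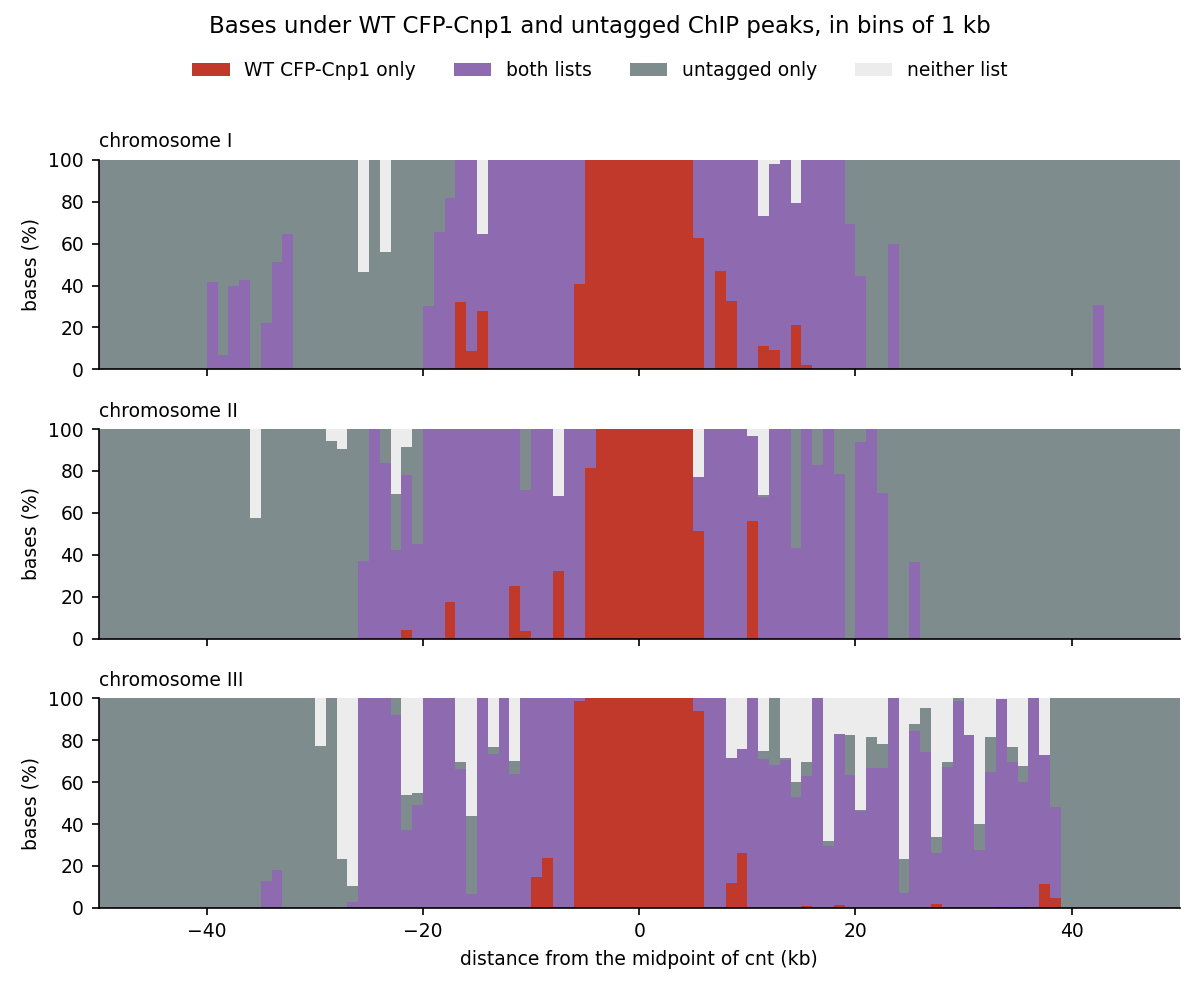
Share of bases (y axis, percent) in bins of 1 kb by distance from the midpoint of *cnt* (x axis, kb) that were under WT CFP-Cnp1 peaks only, under both lists, under untagged peaks only or under neither list, on the 3 chromosomes. The WT-only sequence forms 1 block over each midpoint, with 29812 of the 29997 bases within 5 kb, and gives way on both sides to sequence under both lists.

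These values stand against very unequal lists. Untagged peaks covered 95.2% of the genome and 82.4% of the sequence within 50 kb of a midpoint, and WT peaks covered 1.12% of the genome. The 961 untagged peaks had a median width of 7334 bp and reached 156176 bp, and 201 of them measured 20 kb or more and made up 60.1% of the untagged sequence. The 59 WT peaks had a median width of 904 bp and reached 26358 bp. Of the 140844 bases under WT peaks 73.3% were also under untagged peaks, a share below that of the whole genome, and 37579 bases were WT-only. Against a list that covers nearly everything, lying under an untagged peak says little about a WT peak, and lying outside one is the rarer state.

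The 37579 WT-only bases fell into 28 stretches. The 3 stretches over *cnt* held 88.2% of them, with 11034 bp on chromosome I (3765727 to 3776760), 10170 bp on II (1619394 to 1629563) and 11925 bp on III (1093512 to 1105436). The lengths are alike although *cnt* itself differs more in length. The other 25 stretches measured 3 to 562 bp with a median of 155 bp, and 17 of them were shorter than 200 bp. Of the 25, 21 lay in *otr*, 3 in *imr* and 1 outside the centromere. The single one of at least 500 bp ran from 1634611 to 1635172 in the right *otr* of chromosome II, between the end of an untagged peak and the end of a WT peak.

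By part, the change fell inside *imr*. WT peaks covered all of *cnt*, 98.2% of *imr* and 83.4% of *otr*, and untagged peaks covered 0.0% of *cnt*, 38.7% of *imr* and 83.6% of *otr*. The WT-only share of *imr* was 77.2% on chromosome I, 42.6% on II and 58.8% on III. In *otr* it was 8.3% on chromosome I, 4.37% on II and 2.01% on III. The outer repeats were thus under both lists over most of their length, 87.4% on chromosome I, 89.3% on II and 70.5% on III.

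The untagged peaks ended in *imr*, near tRNA genes, on both sides of each *cnt*. The 6 edges of the untagged list that face *cnt* lay 0 to 403 bp from the nearest tRNA gene, with a median of 179 bp, and 4815 to 5986 bp from the midpoint. Such places are common in *imr*, where 48.7% of all bases are within 500 bp of a tRNA gene, against 12.1% within 50 kb of the midpoints. The left and right *imr* of a chromosome are inverted copies, 99.16 to 99.758% identical, so its left and right edges are not separate observations. Of the 150-base sequences that start in *imr* 5.86% occur once in the genome, and the part of read placement in the edges was not tested. On chromosome I the edges were 221 bp from SPATRNAGLU.03 on the left and 7 bp from SPATRNAGLU.04 on the right, a pair of glutamate tRNA genes at mirrored places in *imr*. On chromosome II the left edge was 137 bp from the valine tRNA gene SPBTRNAVAL.06 and the right edge fell inside the alanine tRNA gene SPBTRNAALA.10. On chromosome III the threonine tRNA genes SPCTRNATHR.08 and SPCTRNATHR.09 lay 357 bp from the left edge and 403 bp from the right edge. The untagged peaks ran past the inner end of *otr* by 916 to 3369 bp before they ended.

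Sequence at 2 of these edges is shown as examples, a choice made after the values were seen. The nearest edge, inside SPBTRNAALA.10, is not among them. The chromosome I line begins with the last 30 bases of the WT-only stretch and ends with SPATRNAGLU.04. The chromosome II line begins with SPBTRNAVAL.06, which reads on the minus strand, and ends with the first 30 bases of the WT-only stretch. Both are plus strand, build ASM294v3, with the tRNA gene in capitals.
chrI:3776731-3776839: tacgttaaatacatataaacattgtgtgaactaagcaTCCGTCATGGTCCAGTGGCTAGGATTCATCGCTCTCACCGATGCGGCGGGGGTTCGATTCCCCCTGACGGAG
chrII:1619174-1619423: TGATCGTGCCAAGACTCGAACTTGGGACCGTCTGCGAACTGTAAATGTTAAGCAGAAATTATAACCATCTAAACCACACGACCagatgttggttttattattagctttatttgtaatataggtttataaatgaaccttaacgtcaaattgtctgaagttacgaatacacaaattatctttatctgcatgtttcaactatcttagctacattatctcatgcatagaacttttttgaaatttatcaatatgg
On chromosome I the glutamate tRNA gene begins 7 bases after the first base of the untagged peak. The WT peak runs on without a break through both places.

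Not every tRNA gene near *cnt* marked an edge. Of the 56 annotated tRNA genes within 50 kb, 6 were under WT peaks only, 31 under both lists, 18 under untagged peaks only and 1 under neither. Of all bases there 12.5% were WT-only, 33.4% under both lists and 49.0% under untagged peaks only. The 6 WT-only genes lay inside the long stretches. They were the isoleucine tRNA genes SPATRNAILE.03 and SPATRNAILE.04 on chromosome I, SPBTRNAVAL.07 on II, and SPCTRNALEU.12, SPCTRNAGLU.10 and SPCTRNALEU.13 on III. SPCTRNAGLU.10 was the only tRNA gene in a *cnt*. The other 17 of the 22 tRNA genes in *imr* were under both lists. Of all bases of *imr* 38.7% were under both lists and 59.4% were WT-only. Beyond 50 kb 112 of 115 tRNA genes were under untagged peaks only, as were 95.5% of all bases, and 1 was under both lists.

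**Figure D2:**
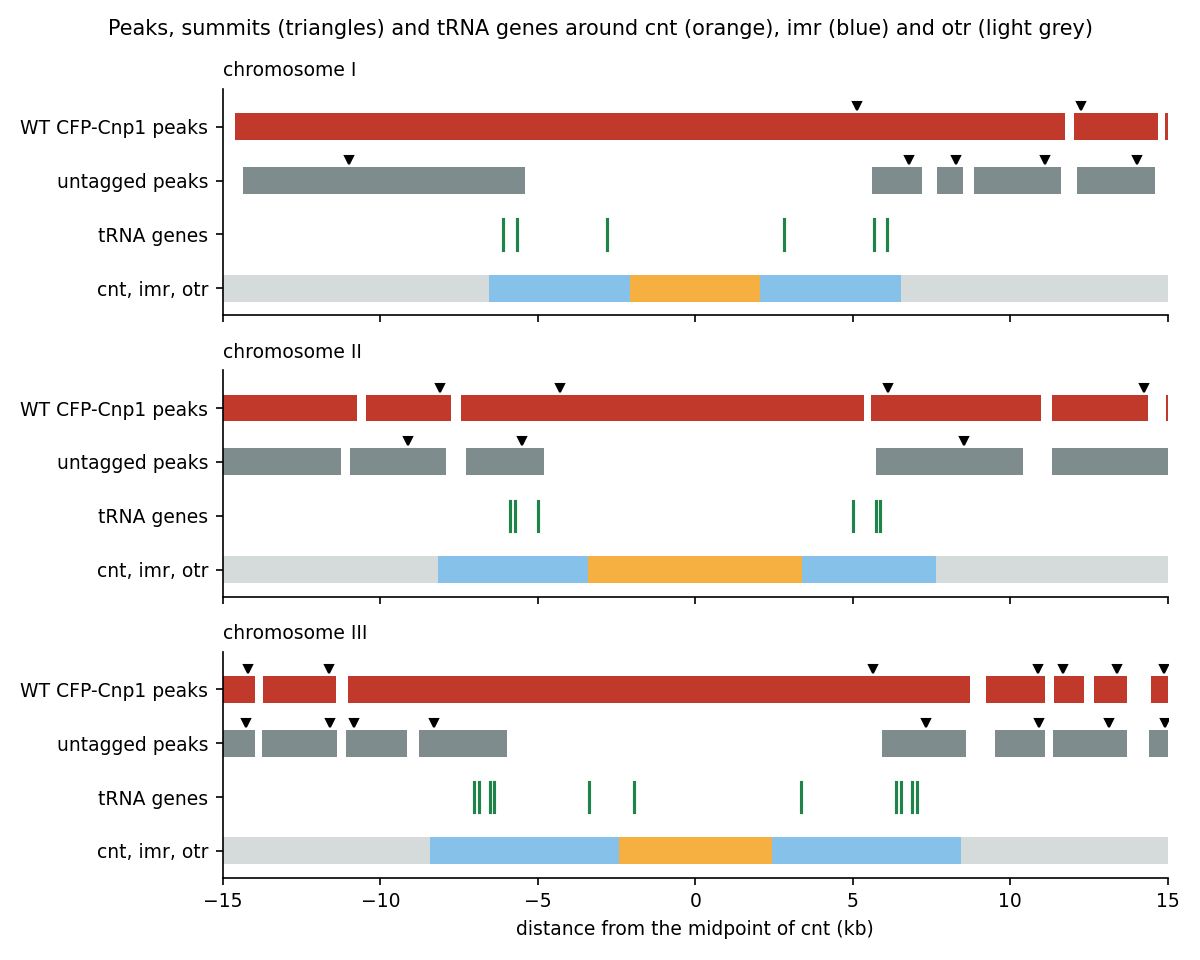
Peaks of both lists within 15 kb of the midpoint of *cnt* (x axis, kb), with WT CFP-Cnp1 peaks above untagged peaks, summits as triangles, tRNA genes as green bars and the parts of the centromere at the bottom. The untagged peaks leave a gap of 10559 to 11925 bp over each *cnt*, whose 6 edges lie 0 to 403 bp from a tRNA gene, and 1 WT peak bridges it on chromosomes I and III.

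On chromosome II the WT sequence was broken near the right edge. The WT peak over *cnt* ended at 1629563 and the next began at 1629794, so 230 bp in the right *imr* lay under neither list. SPBTRNAVAL.07 is 322 bp inside the end of the first of these peaks. A second break, of 320 bp from 1616463 to 1616782, lay in the left *imr*. The central domains of chromosomes I and III had no such break, with WT peaks over 100.0% of *imr* on both.

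The gaps over *cnt* were among the longest anywhere in the untagged list. The list leaves 964 gaps with a median of 379.5 bp, and 4 of them measured 10 kb or more. The longest was the one on chromosome III with 11925 bp, then that on chromosome I with 11034 bp, and the gap on II was the fourth with 10559 bp. WT peaks filled all of the first pair and 10329 bp of the gap on chromosome II. The third gap, of 10836 bp, lay on chromosome II from 31283 to 42118, near the left end of the chromosome, over the hexose transporter gene *ght7* and SPBC1348.12, and no WT peak touched it. The next gap was 5639 bp long. WT peaks touched 22 of the 964 gaps and filled 8 completely.

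**Figure D3:**
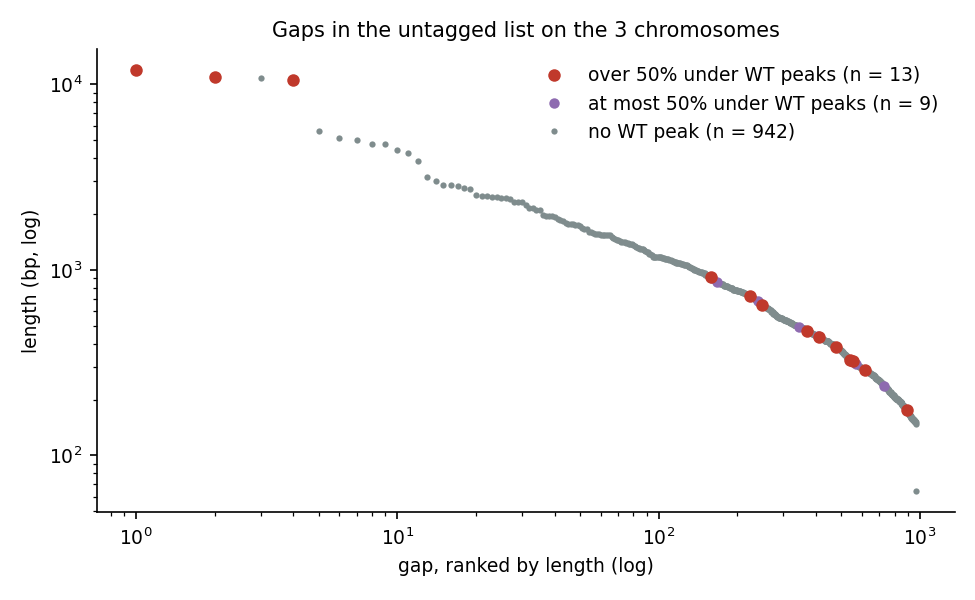
Length (y axis, bp, log scale) of the 964 gaps in the untagged list, ranked by length (x axis, log scale) and coloured by how much of the gap WT CFP-Cnp1 peaks cover. Of the 4 gaps of at least 10 kb, the 3 over *cnt* are under WT peaks over more than 50% of their length and the one of 10836 bp has none.

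Few WT summits lay outside the untagged peaks, and these were the highest. Of the 59 WT summits 3 lay outside untagged peaks, 5.08%, which leaves 94.9% under untagged peaks, beside the 95.2% of the genome they cover. The exact 95% interval of the 5.08%, 1.06 to 14.1%, is for counting error only. It treats the peaks as independent, although many are neighbours in a repeat, and holds no experimental error. Without the untagged peaks of 20 kb or more 22 WT summits lay outside. The 3 were the highest of the WT list and 1 lay on each chromosome. Their scores were 41393 on chromosome I at 3776264, 40987 on III at 1105152 and 37090 on II at 1619919. The score is a deposited value that MACS writes as 10 times the −log10 of a p-value, and it was compared only with other scores of the same list. The fourth WT peak, of 5379 bp with its summit at 1630338 in the right *imr* of chromosome II, scored 2873. Ranked by score divided by width, the same 3 peaks came first, with that of chromosome II ahead.

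The 3 peaks are broad and each has a single summit, so the score does not describe the rest of their length. The peak on chromosome I measured 26358 bp, of which 53.7% was under 4 untagged peaks. The peak on chromosome III measured 19756 bp and 37.1% of it was under 3 untagged peaks. The peak on chromosome II measured 12781 bp and 19.2% of it was under 1 untagged peak. In *cnt* itself no summit of either list was found. The nearest untagged summits were 1658 bp away on chromosome I, 1655 bp on III and 1202 bp on II.

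By part, WT scores stepped down from *imr* to *otr* to the sequence outside. The 5 WT summits in *imr* scored 2082 to 41393 with a median of 37090 and all ranked in the first 8. The 30 in *otr* scored 218 to 2166 with a median of 556, and the 24 outside scored 18 to 2778 with a median of 28. The untagged list ran in another order. Its 3 summits in *imr* scored 138 to 225 with ranks from 190 to 695 of 961, its 36 in *otr* scored 115 to 2518 with a median of 628.5, and its 922 outside scored 17 to 2616 with a median of 180. The outer repeats were therefore a high place in the untagged list, which held 27 of its first 51 peaks there, while *imr* was not.

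**Figure D4:**
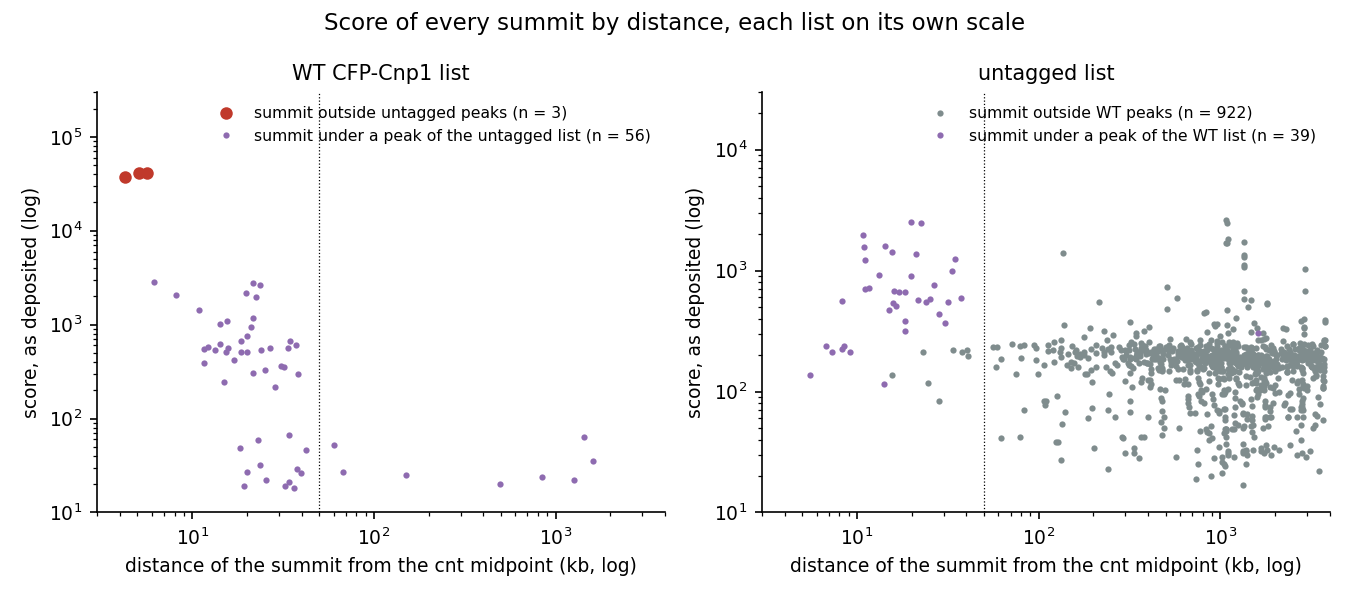
Score of every summit (y axis, as deposited, log scale) against its distance from the midpoint of *cnt* (x axis, kb, log scale), WT CFP-Cnp1 list on the left and untagged list on the right, each on its own scale, with the dotted line at 50 kb. The 3 WT summits outside untagged peaks score 37090 to 41393 and stand above the other 56, which reach 2873, and the untagged list rises between 10 and 50 kb and at single places in the arms.

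In the *otr* of chromosome III the lists were close to copies of each other. There were 20 pairs in which a WT peak and an untagged peak overlapped each other, no other peak, and both lay in the repeats. WT widths were 0.817 to 1.16 times the untagged widths with a median of 0.929, and the WT peak was the narrower in 19 of 20. The WT peak began 72 bp inside the untagged peak and ended 21.5 bp inside it at the median. The summits were 33 bp apart at the median and at most 609 bp, and 14 of 20 were within 50 bp. At 1076980 and 1130146 the WT summit was 1 bp from the untagged one. Of the 150-base sequences that start in the WT peaks of these 20 pairs, 0.0 to 3.34% occur once in the genome. A read from there mostly has another possible place, and the part of read placement in this likeness was not tested. A further pair at 1137681 joins a WT peak of 598 bp to an untagged peak of 19716 bp that runs on into the right arm.

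The order of the peaks was shared there as well. The highest WT peaks of this stretch, at 1079611 with a score of 2166 and at 1076980 with 1951, were seventh and ninth in the WT list, and their untagged partners, with 2518 and 2478, were the second and the third in the untagged list. Next in the WT list came 1110391 with a score of 1443, at rank 10, and its untagged partner was at rank 11. Over the 20 pairs Spearman's rank correlation between the scores was 0.85, and over all 21 it was 0.86. The points share their place in a repeat, their neighbours and the 2 libraries, so this is a description and carries no p. In these pairs CFP-Cnp1 and what the antibody brings down without it cannot be told apart.

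**Figure D5:**
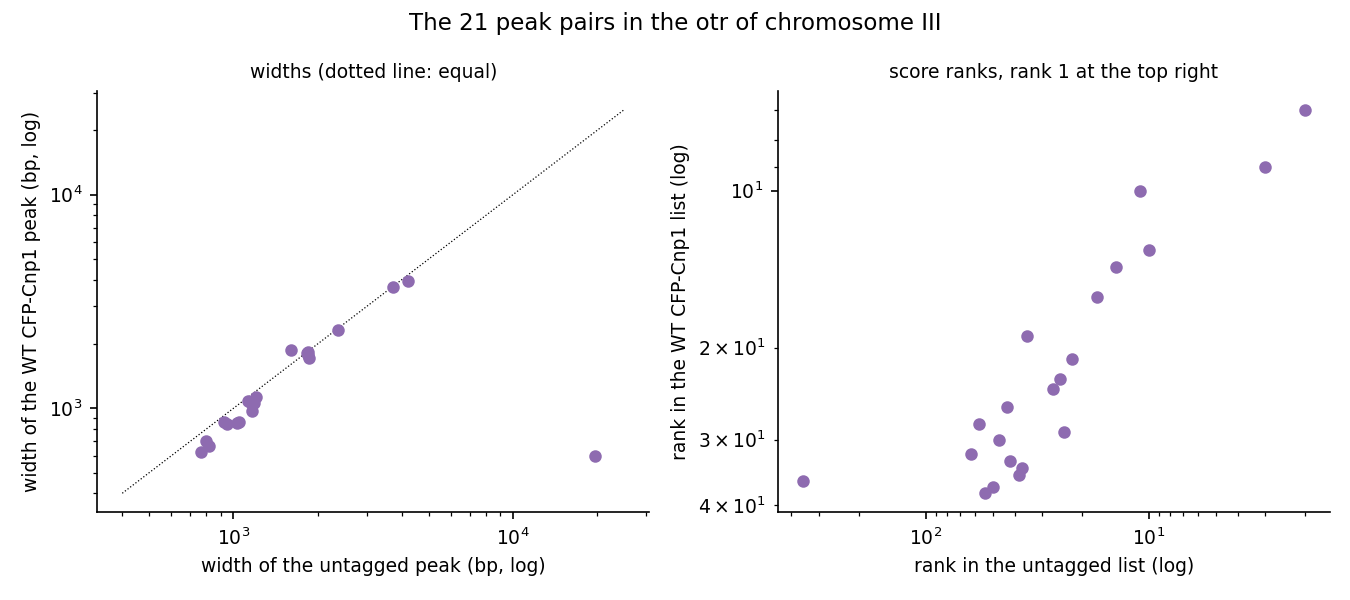
The 21 pairs of 1 WT CFP-Cnp1 peak and 1 untagged peak in the centromere of chromosome III, with the width of the WT peak against that of the untagged peak on the left (bp, log scales) and the rank in the WT list against the rank in the untagged list on the right (log scales, high ranks at the top right). WT widths are 0.817 to 1.16 times the untagged widths in 20 of the 21 pairs, and Spearman's rank correlation of the scores is 0.86.

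The outer repeats of chromosomes I and II did not pair in this way. Only 1 peak pair was found in the *otr* of chromosome I, at 3783373 with a WT score of 575 at rank 20, whose partner had an untagged score of 115 at rank 745. There the WT peak was the wider, by 90 bp on the left and 116 bp on the right, and the summits were 1785 bp apart. The next WT peak of chromosome I, of 2587 bp with its summit at 3755456 in the left *otr*, scored 568 at rank 22. That summit was 189 bp from an untagged summit. The median distance from a WT summit in *otr* to the nearest untagged summit was 1137 bp on chromosome I, 1509 bp on II and 41 bp on III. These medians rest on 3 WT summits on chromosome I, 4 on II and 23 on III. The exception on chromosome II was the WT summit at 1639744, 6 bp from an untagged summit that ranked twelfth in its list with 1437. It scored 1089 and was twelfth in the WT list too. On chromosome I a single WT peak bridged 4 untagged peaks, and on II a WT peak of 9697 bp bridged 3.

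Over all chromosomes 24 of 59 WT summits lay within 500 bp of an untagged summit, where 7.62% of the genome lies. Of these 24, 23 were within 50 kb of a midpoint, and 20 of the 23 were on chromosome III. Untagged summits are denser in that zone, with 46 in 299997 bases and 28 of them on chromosome III. The genome share is thus too low a measure for the zone, whose own share was not computed. Of the 961 untagged summits 24 lay within 500 bp of a WT summit. Of the 46 untagged summits within 50 kb 38 were under WT peaks, and of the 915 beyond 1 was. WT peaks covered 45.9% of all bases within 50 kb and 0.0255% of those beyond, so much of this contrast follows from where the WT list has peaks. In all 49 untagged peaks, 5.1% of the list, overlapped a WT peak, 41 of them with their summit within 50 kb.

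Outside the parts of the centromere 3 WT peaks scored over 1000, all on chromosome II beside the *otr*, in clusters of tRNA genes. They had scores of 2778 at 1645869, 2670 at 1600550 and 1187 at 1602681, with ranks 5, 6 and 11. The first pair of peaks held 6 tRNA genes each, and their summits were 225 bp from SPBTRNAALA.11 and 244 bp from SPBTRNAALA.08. All 3 were under untagged peaks over 94.6 to 100.0% of their length. The untagged peaks over the summits of the last pair scored 214 and 314, at ranks 240 and 79, and the first lies in an untagged peak of 43004 bp whose own summit is 6131 bp away.

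These flank summits sit in sequence that is also found in *imr*. The window around 1645869 is shown with its copies, plus or minus strand as given, build ASM294v3. The summit base of the first line is in capitals, and in the copies capitals mark bases that differ from the first line.
chrII:1645819-1645919, plus: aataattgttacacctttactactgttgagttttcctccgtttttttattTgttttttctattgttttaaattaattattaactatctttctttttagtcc
chrII:1600481-1600581, plus: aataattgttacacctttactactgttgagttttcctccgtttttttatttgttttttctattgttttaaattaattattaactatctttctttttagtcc
chrII:1618688-1618788, plus, left *imr*: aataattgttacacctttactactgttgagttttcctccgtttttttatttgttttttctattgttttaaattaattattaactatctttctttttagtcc
chrII:1629627-1629727, minus, right *imr*: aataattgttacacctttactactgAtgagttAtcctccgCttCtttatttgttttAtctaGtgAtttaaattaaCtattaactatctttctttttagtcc
chrIII:1065292-1065392, plus: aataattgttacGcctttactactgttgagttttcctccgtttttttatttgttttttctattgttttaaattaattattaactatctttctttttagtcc
The second line is the other flank peak, with the WT score of 2670, so the 2 flank summits lie in 1 repeated sequence. The third line lies inside the WT peak with the score of 37090. The fourth line differs at 8 bases, 92.1% identity, and lies in the break of 230 bp between WT peaks. The last line differs at 1 base and is under an untagged peak. A small WT peak with a score of 66 begins inside it, at 1065367, and has its summit beyond it, at 1065560. The exact match around 1645869 runs for 1636 bases to the other flank, 970 bases to the left *imr* and 232 bases to the copy on chromosome III, and the part of shared reads in the flank scores was not tested.

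The third flank summit has its copies on another chromosome. Its window, plus strand, build ASM294v3 and with the summit base in capitals, was found 100.0% identical in both *imr* of chromosome III, at 1092123 to 1092223 and 1106771 to 1106871.
chrII:1602631-1602731: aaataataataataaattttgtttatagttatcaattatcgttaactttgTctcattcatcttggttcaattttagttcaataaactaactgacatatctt
Both copies are inside the WT peak of chromosome III with the score of 40987, and under untagged peaks that scored 225 and 212.

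The other 21 WT peaks outside the centromeres were small, 304 to 904 bp wide, and scored 18 to 66, while the lowest WT score inside a centromere was 218. All 21 were entirely under untagged peaks, which cover 95.2% of the genome. Of all 24 WT summits outside the centromeres, 15 were only under untagged peaks of 20 kb or more. Of the 21 small WT peaks 13 had their summits within 50 kb of a midpoint and 8 beyond, and 16 lay on chromosome I. Of the 13, 5 stood in a row on the left flank of chromosome I at 3731639, 3733198, 3734872, 3736960 and 3738775, with scores of 26, 29, 18, 21 and 19. They lay over *grx2*, which encodes a glutaredoxin, *fub1*, *gua2*, which encodes a GMP synthase, and the conjugation gene *prm1*, which held the last pair of summits, all under 1 untagged peak of 35049 bp. Nearer to the left *otr* of chromosome I small peaks at 3751931 and 3752853 scored 19 and 49. On the right flank small peaks lay over *emc5* with a score of 27, *rad50*, which encodes a subunit of the MRN DNA repair complex, with a score of 32, and *any2* with a score of 46. The other 3 scored 59 at 1601262 and 22 at 1649539 on chromosome II, the last in the meiotic recombination gene *rec6*, and 66 at 1065560 on III.

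The 8 WT peaks beyond 50 kb scored 20 to 64, and 2 of them remain when the lowest 25% of each list by score is left out. The highest, at 5198158 on chromosome I with a score of 64 at rank 40, lay in the retrotransposon Tf2-8, and another, at 2930364 with a score of 24, lay in Tf2-3. The summit in Tf2-8 was 536 bp from an untagged summit of score 504, at rank 48 of the untagged list. Its window is shown because it is repeated, plus strand and with the summit base in capitals.
chrI:5198108-5198208: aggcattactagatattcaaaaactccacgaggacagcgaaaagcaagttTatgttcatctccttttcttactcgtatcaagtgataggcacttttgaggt
It has 12 further copies in the genome, all 100.0% identical and all under untagged peaks with scores of 293 to 504, and no other copy was under a WT peak. Beyond 50 kb untagged peaks cover 95.5% of all bases and WT peaks 0.0255%, so these counts say nothing particular to the copies. At 8004 on chromosome II, in the gene *ftm5* near the chromosome end, a WT peak with a score of 35 had its summit 39 bp from an untagged summit of score 305. Further peaks had scores of 27 at *ubr11*, a ubiquitin ligase gene, 52 beside SPATRNAVAL.04, 20 at *aim29* and 22 at *set3*.

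The untagged list had its own high places in the arms. Of its first 10 peaks 4 lay in the *otr* of chromosome III and the other 6 within 30 kb of an end of chromosome III, where rDNA lies. The highest of all, at 20586 with a score of 2616, was 126 bp from SPRRNA.51, an annotated rRNA gene. The next in the arms scored 2472 at 9698, 1819 at 3174, 1717 at 2449588 and 1701 at 24329. No WT peak overlapped any of these 5, and the nearest WT summit was 1041231 bp away or farther. Of the first 51 untagged peaks 28 overlapped a WT peak, against 49 of all 961 (5.1%).

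Of the 37579 WT-only bases 15774 lay in *cnt*, which is all of it, and 17838 in *imr*. The base composition of the WT-only sequence is thus largely that of these parts, and their likeness is no separate result. GC content was 28.6% in *cnt*, 29.2% in *imr*, of which 38.7% was under both lists, and 33.6% in *otr*. Long non-coding RNA genes held 7.73% of *cnt*, 22.0% of *imr* and 93.0% of *otr*. Within 50 kb the GC content of WT-only sequence was 28.5%, against 33.1% under both lists, 35.7% under untagged peaks only and 34.0% under neither. The 3 long stretches had 28.0, 28.0 and 28.6% GC on chromosomes I, II and III. They hold no coding sequence and no LTR, and 1.52% of their bases are in tRNA genes and 11.2% in annotated long non-coding RNA genes, against 78.4% of the bases under both lists within 50 kb. Of the 150-base sequences that start in them, 12.3% occur once in the genome on chromosome I, 71.5% on II and a share between these on III. The share was 10.8% in the sequence under both lists within 50 kb and 97.8% in untagged-only sequence beyond 50 kb. GC content, repeats and the distance from *cnt* change together here, and their part in where either list has peaks was not tested.

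Of 14 genes that load or hold CENP-A, 0 were under a WT peak and 14 were under an untagged peak only. WT peaks cover 1.12% of the genome and untagged peaks 95.2%, so these counts say nothing particular to the 14 genes. They include *cnp1* itself, at 3538504 to 3540163 on chromosome II, under an untagged peak of score 208 at rank 274, and *scm3*, the chaperone of Cnp1, with 172 at rank 541. The highest untagged score among the 14 was 283 at *mis15*, at rank 90, and the lowest 152 at *mis6*, at rank 650, both of which encode inner kinetochore proteins. The locus of the tagged gene had no peak in the WT list.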

How the data were processed

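Only the deposited peak lists of the WT CFP-*cnp1* and untagged ChIP libraries were used, 1 library each, and of the third list only the number of peaks. Per the submitters' processing notes and the methods, Cutadapt did the trimming, Bowtie2 the mapping (ASM294v2 and sacCer3) and Samtools the removal of rDNA, mitochondrial reads and duplicates. MACS3 then compared each ChIP with an input background after spike-in calibration, library by library, and background was later removed more strictly. Versions and cutoffs: not given in the sources used here. Values of the authors' lists were taken as deposited. The deposited score was read, by the MACS convention, as 10 times the highest −log10 p-value of a peak, and ranked within a list. Signal, p and q columns are 0 throughout and were not used. A list calibrated and filtered by itself sets its own sensitivity, so peak numbers of the 2 lists compare no amounts.

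Bases were divided into WT only, both, untagged only and neither, with an overlap of at least 1 bp. *cnt*, *imr* and *otr* were located by comparing 60 kb windows with BLAST+ 2.17.0: *imr* as inverted arms of at least 1000 bp and 95% identity, cut where *otr* begins, *otr* as stretches of at least 500 bp and 80% identity shared between centromeres. This refines the planned definition, which took the whole arm as *imr*. All peaks end within the ASM294v3 chromosomes. Python 3.11.15, NumPy 2.4.6, pandas 2.3.3 and SciPy 1.17.1 were used, and the partition was tested on simulated data. Summits within 50 kb of a midpoint were held apart from the arms. Loci were named by rule (the 3 highest WT peaks within 50 kb of each midpoint, all WT peaks beyond it, WT-only stretches of at least 500 bp, the 5 highest untagged peaks on each side of 50 kb), and others, such as the small WT peaks within 50 kb, after their values were seen. The locus of 1 WT peak beyond 50 kb is not reported here. The members and lists were chosen with earlier results of these data known. Alternatives changed the score floor, the width minimum, merging, extension, broad peaks, the zone and the summit rule. No test was made, since each strain has 1 library.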

Additional observations from a re-analysis of the deposited data

How the results depend on the processing

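The 3 WT-only stretches over *cnt* kept 32129 to 33518 bp in total when low scores or narrow peaks were left out, peaks merged, untagged peaks extended or broad untagged peaks left out, against 33129 bp as deposited. Other values changed more. Merging peaks closer than 500 bp left 10 WT-only stretches, extending untagged peaks by 200 bp left 7, and leaving out untagged peaks of 20 kb or more gave 46, against 28. Without those broad peaks the WT-only sequence was 57922 bp, against 37579 bp, 1594 bases of it lay beyond 50 kb, and 22 WT summits lay outside untagged peaks, against 3: the 3 in *imr*, 4 in *otr* and 15 outside the centromeres. With a summit called shared only within 500 bp of another summit, 35 WT summits stood alone. Leaving out the lowest 25% of each list by score gave 4 WT summits outside untagged peaks, 2 WT summits beyond 50 kb, against 8, and 40051 WT-only bases. The sequence under neither list measured 927907 bp in that case, 255904 bp with extended untagged peaks and 7738746 bp without the broad ones, against 561697 bp, and without the broad ones 4692230 bp were under untagged peaks only, against 11869279 bp. With a zone of 30 kb, 172 WT-only bases and 21 WT summits lay beyond it, against 0 and 8. Ranking by score over width left the same 3 peaks first. No paired analysis was possible because the result comes from no test and each strain has 1 library. The lists hold no depth, and by the paper's read numbers the WT ChIP library was the shallower of the 2. A missing WT peak cannot be told from a peak below the cutoff.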
